A study of Mus musculus with 4 samples.

Results

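The 6 tubulin genes Tuba1a, Tuba1b, Tubb2a, Tubb2b, Tubb3 and Tubb5 were followed through the cells of 4 mouse medulloblastomas, from dividing cells to neuronal ones. They were taken by name from the 15002 genes of the count tables, and all 6 were present in the tables of all 4 tumours and passed the filter on low counts. The tumours came from untreated mice that carried hGFAP-Cre, SmoM2 and 2 floxed alleles each of Prkaa1 (Prkaa1fl/fl) and Prkaa2 (Prkaa2fl/fl), harvested at postnatal day 16. The human GFAP promoter drives the Cre recombinase in neural stem and progenitor cells, where Cre switches on SmoM2, an activated form of Smoothened, and deletes the floxed Prkaa1 and Prkaa2, which encode the catalytic subunits of AMP-activated protein kinase. All 4 tumours carry the same alleles, and a comparison with tumours that kept Prkaa1 and Prkaa2 was not analysed here. Cells were profiled by Drop-seq, which captures the 3′ ends of polyadenylated RNA of single cells in droplets and counts unique molecular identifiers (UMIs), 1 for each captured molecule.

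Microtubules are hollow polymers of paired α- and β-tubulin. In a dividing cell they form the mitotic spindle, and in a neuron that has left the cell cycle they fill the axon and dendrites and carry transport. Several genes encode α-tubulin and several encode β-tubulin, and the products, called isotypes, are nearly identical over most of their length and differ mainly in the acidic tail that projects from the microtubule. Tuba1a is the main α-tubulin gene of developing neurons, whereas Tuba1b is expressed in most tissues. Tubb3 is the classical neuronal β-tubulin and the antigen of a widely used neuron stain, Tubb2a and Tubb2b are abundant in the brain, and Tubb5 is expressed broadly, neural progenitors included. The medulloblastomas of this model arise in the lineage of cerebellar granule neurons, in which progenitors divide under Sonic hedgehog signalling and then differentiate.

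In GENCODE M21 (GRCm38), Tuba1a lies on the minus strand at chr15:98949837-98953703 and Tuba1b beside it at chr15:98931425-98934565. Tubb2a (chr13:34074274-34078007) and Tubb2b (chr13:34126748-34130466) are likewise near each other on the minus strand. Tubb3 lies on the plus strand at chr8:123411424-123422015 and Tubb5 on the minus strand at chr17:35833921-35838306. The stretches directly upstream of the annotated starts are shown because members with different courses through the 4 classes of cells described below can be set side by side. They come from RefSeq promoter windows (GRCm38.p6), which held 5 of the 6 genes, all but Tubb2b. Each stretch is printed 5′ to 3′ on the gene's strand, up to 150 bases long, and ends at the base before the more upstream of the RefSeq and GENCODE starts. Capitals mark matches, on either strand, to the E-box CANNTG, to CCAAT, to the GC-box GGGCGG, to TATAAA or to the cell-cycle element TTTGAA.
Tuba1a, chr15:98953704-98953751, minus strand: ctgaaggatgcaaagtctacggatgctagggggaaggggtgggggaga
Tuba1b, chr15:98934566-98934640, minus strand: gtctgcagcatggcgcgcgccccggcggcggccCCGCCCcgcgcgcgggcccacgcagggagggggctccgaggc
Tubb2a, chr13:34078009-34078158, minus strand: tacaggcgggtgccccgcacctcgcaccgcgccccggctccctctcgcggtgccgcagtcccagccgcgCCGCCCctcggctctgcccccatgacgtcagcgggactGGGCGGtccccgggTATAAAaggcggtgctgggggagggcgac
Tubb3, chr8:123411303-123411423, plus strand: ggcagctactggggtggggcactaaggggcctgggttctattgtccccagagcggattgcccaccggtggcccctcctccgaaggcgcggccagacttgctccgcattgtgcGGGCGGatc
Tubb5, chr17:35838307-35838456, minus strand: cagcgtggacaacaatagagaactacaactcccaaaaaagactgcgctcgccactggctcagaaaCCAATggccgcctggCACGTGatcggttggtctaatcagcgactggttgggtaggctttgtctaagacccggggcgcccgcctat

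The printed stretch of Tubb5 held 1 CCAAT and 1 E-box, and that of Tubb2a held 2 GC-boxes and 1 TATAAA. Tuba1b and Tubb3 held 1 GC-box each, and the 48 bases of Tuba1a held none of the 5 motifs. In the full windows of 300 bases, CCAAT had 2 matches in Tubb5, 1 each in Tuba1a and Tubb3 and 0 in Tuba1b and Tubb2a, and TTTGAA had 0 in all 5. Over 32851 RefSeq windows of the same length, CANNTG was present in 72.3%, CCAAT in 37.4%, GGGCGG in 35.7%, TTTGAA in 17.9% and TATAAA in 13.6%. A match is a run of letters and not a measured binding site.

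Barcodes with at least 500 UMIs were kept, which left 3222 of 6734, namely 766, 807, 566 and 1083 in tumours 1 to 4, with medians of 749 to 972 UMIs per cell. Cells were placed in classes by the summed UMIs of marker lists, in which no tubulin takes part. There were 184, 227, 131 and 288 G2/M cells, 100, 99, 109 and 233 S-phase cells, 69, 63, 74 and 138 non-dividing cells with progenitor markers, and 212, 154, 143 and 203 neuronal cells in tumours 1 to 4. A class is a range of marker levels and not a cell type. Cells within 25% of the G2/M threshold numbered 49, 89, 39 and 89, those near the S-phase threshold 81, 140, 74 and 172, and those near the neuronal threshold 113, 166, 64 and 102. Cells that met no rule made up 15.02 to 24.16% of each tumour, and cells with both cycle and neuronal markers 1.2 to 3.97%. Neuronal markers had medians of 3.76 to 5.02 UMIs per 1000 in G2/M cells, against 17.96 to 25 in neuronal cells.

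The libraries formed 2 pairs. Mitochondrial genes took 12.1% and 12.7% of the UMIs of tumours 1 and 2, against 2.68% and 2.13% in tumours 3 and 4, and the labels name no batch. Levels of Tuba1a, Tuba1b, Tubb3 and Tubb5 were lower in tumours 1 and 2 than in tumours 3 and 4 in all 4 classes, so comparisons were made within tumours, and several are also given within each pair. Markers of glia, microglia and vessels were present at low levels in all 4 classes, and their part in the results was not tested. The summed oligodendrocyte list ranged from 377 to 552 UMIs per 1000000 UMIs of the class (CPM) in G2/M cells and from 471 to 736 CPM in neuronal cells, with 12 and 9 of its 12 genes detected and Sox10, Mog and Gpr17 at 0 in neuronal cells. The astrocyte list ranged from 222 to 666 and from 221 to 602 CPM, with Aldh1l1 at 0 in both classes. The microglial, endothelial and mural lists averaged between 14.7 and 105 CPM in each of the 4 classes. One barcode sequence occurred in both tumour 2 and tumour 4.

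Together, the 6 tubulins were most abundant in neuronal cells. Summed, they held 2999, 4202, 7306 and 8349 CPM in the G2/M cells of tumours 1 to 4 and 6851, 7185, 14046 and 15385 CPM in the neuronal cells. The neuronal value was the higher in every tumour, although that of tumour 1 lay below the G2/M value of tumour 3, so the classes overlap between tumours but not within them. The ratio of neuronal to G2/M cells averaged 1.94 ± 0.25 (SD, n = 4) and ran from 1.71 to 2.29. The two-sided exact sign-flip test on the 4 tumours gave p = 0.13, the smallest it can give (2 of 16 sign patterns). S-phase cells stood at 5157 ± 2288 CPM and non-dividing cells at 4256 ± 1407 CPM (SD, n = 4 each). Among the 6 genes, the UMIs of the α-tubulins over those of the β-tubulins came to 1.24 ± 0.17 in G2/M, 1.24 ± 0.18 in S-phase, 1.23 ± 0.21 in non-dividing and 1.47 ± 0.16 in neuronal cells (SD, n = 4 each). Other tubulin genes were not counted in this ratio. A CPM value is a share of the RNA captured from a class, and median UMIs per cell were 814 to 1270 in G2/M cells against 695 to 797 in neuronal cells. One UMI stands for one molecule whatever the length of the transcript, so levels of different genes are compared without a length correction. Reads from near-identical genes can be counted to the wrong copy, and how reads with several matches were counted is not given in the sources used here, so the split between Tuba1a and Tuba1b and between Tubb2a and Tubb2b is uncertain to that extent.

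Between G2/M and neuronal cells, 4 of the 6 genes rose, 1 fell and 1 was not called. Tubb2a, Tubb3, Tubb2b and Tuba1a rose by 8.57-, 3.86-, 3.49- and 2.83-fold, the first of them from a low level with few UMIs. Tuba1b fell to 0.26 of its G2/M level, and Tubb5 had nearly the same level in both. In edgeR's quasi-likelihood test on counts summed per tumour and class, 38.6% of the 3947 genes tested outside the marker lists were called in this comparison at an adjusted p under 0.05, 18.8% higher and 19.9% lower. The median log2 fold change was 1.65 over the 6 tubulins and -0.02 over all tested genes. Classes and tubulin counts were taken from one set of cells, so an adjusted p describes these classes and is not evidence that they exist.

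Tuba1a was the most abundant of the 6 in all 4 classes and in all 4 tumours. It stood at 1276, 1713, 3004 and 2960 CPM in the G2/M cells of tumours 1 to 4 and at 3869, 3798, 8341 and 9179 CPM in the neuronal cells. Every neuronal value lay above every G2/M value. The log2 fold change was 1.5 (SE 0.10, edgeR adjusted p = 4.65e-21), higher in 4 of 4 tumours. S-phase cells had 2059 ± 835 CPM and non-dividing cells 1947 ± 710 CPM (SD, n = 4 each), and both means lay within the range of the G2/M values.

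Tuba1b, the other α-tubulin, took the opposite course. Its level was 330, 424, 1207 and 1910 CPM in G2/M cells, 296, 470, 937 and 1623 CPM in S-phase cells, 253, 251, 570 and 593 CPM in non-dividing cells and 87.6, 261, 295 and 311 CPM in neuronal cells of tumours 1 to 4. The highest neuronal value lay below the lowest G2/M value. The log2 fold change from G2/M to neuronal cells was -1.93 (SE 0.18, edgeR adjusted p = 6.25e-15), lower in 4 of 4 tumours. The fall was -1.17 in tumours 1 and 2 alone (adjusted p = 0.000326) and -2.40 in tumours 3 and 4 alone (adjusted p = 2.48e-54) by edgeR. Tumours 3 and 4 had the high G2/M values, and the neuronal values of tumours 2, 3 and 4 were close to each other. Of the UMIs of Tuba1a and Tuba1b alone, with other α-tubulins not counted, Tuba1a held 72.9% ± 9.05 in G2/M cells and 96.2% ± 1.81 in neuronal cells (SD, n = 4 each).

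Tubb2a was the least abundant member in dividing cells, with few UMIs behind its G2/M level. Only 18, 14, 4 and 13 UMIs were counted in the G2/M cells of tumours 1 to 4, which is 84.7, 66.6, 27.8 and 31.2 CPM, against 90, 52, 42 and 80 UMIs in the neuronal cells, which is 492, 412, 387 and 428 CPM. The classes did not overlap, and the 4 neuronal values lay closer together than those of any other member, with 430 ± 45.1 CPM (SD, n = 4). The log2 fold change was 3.10 (SE 0.24, edgeR adjusted p = 4.11e-19), and it was 2.60 in tumours 1 and 2 and 3.76 in tumours 3 and 4. The 50 microglial, endothelial and mural cells described under Tubb3 held 132 CPM of Tubb2a (11 UMIs), above each of the 4 G2/M values. Whether these UMIs are free RNA or come from the 50 cells themselves was not tested, and the fold is taken over a level below theirs. Its neighbour Tubb2b stood at 174, 295, 173 and 262 CPM in G2/M cells and at 635, 641, 747 and 1092 CPM in neuronal cells, again with no overlap. Tubb2b rose by 1.80 on the log2 scale (SE 0.16, edgeR adjusted p = 4.69e-16), higher in 4 of 4 tumours, with 1.49 in tumours 1 and 2 and 2.08 in tumours 3 and 4.

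Tubb3 UMIs were counted in all 4 classes. G2/M cells held 155, 324, 548 and 464 CPM and neuronal cells 733, 799, 2313 and 1896 CPM in tumours 1 to 4, without overlap, and S-phase cells held 222, 224, 410 and 432 CPM. Tubb3 rose by 1.95 on the log2 scale from G2/M to neuronal cells (SE 0.14, edgeR adjusted p = 4.03e-20), higher in 4 of 4 tumours. After each cell was thinned to 500 UMIs, a Tubb3 UMI was found in 16.5% ± 5.76 of G2/M cells and in 43.9% ± 17.3 of neuronal cells (SD, n = 4), and without thinning in 29.4% ± 10.9 and 57.6% ± 17.4. Microglial, endothelial and mural cells, which should lack Tubb3, had one in 2 of 50 cells after thinning, or 4.00% (exact Clopper-Pearson 95% interval 0.49 to 13.7%), and in 4 of 50 before, with a median of 1207 UMIs. Of these 50 cells, 21, 18, 4 and 7 came from tumours 1 to 4, so the background rests mainly on tumours 1 and 2, where Tubb3 was lower, and the thinned share of G2/M cells was 8.15, 18.1, 21.4 and 18.4% in tumours 1 to 4, inside that interval in tumour 1 and above it in the other three. Neuronal markers, without tubulins, had medians of 3.22 to 3.88 UMIs per 1000 in the cells set apart by glial, immune or vessel markers, against 3.76 to 5.02 in G2/M cells. The part of free RNA in the Tubb3 UMIs of G2/M cells was not tested. The thinned share of Tubb2a was 2.64% ± 1.04 in G2/M cells and 17.2% ± 2.77 in neuronal cells (SD, n = 4). It was 4.00% in the 50 cells, so the share in G2/M cells was not above that of the 50 cells. For Tubb2b the thinned shares were 10.7% ± 1.33 and 30.2% ± 5.86 (SD, n = 4), against 2.00% in the 50 cells (exact 95% interval 0.051 to 10.6%). The G2/M share was 8.70, 11.5, 11.5 and 11.1% in tumours 1 to 4, inside that interval in tumour 1 and just above it in the other three.

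Tubb5 had a smaller fold change between G2/M and neuronal cells than the other five. It stood at 979, 1380, 2345 and 2722 CPM in G2/M cells, 961, 1243, 2258 and 2490 CPM in S-phase cells, 823, 1002, 1029 and 1626 CPM in non-dividing cells and 1034, 1274, 1963 and 2479 CPM in neuronal cells. G2/M and neuronal values overlapped, and the neuronal value was the higher in tumour 1 and the lower in the other three. The log2 fold change was -0.09 (SE 0.12, edgeR adjusted p = 0.598), with an approximate 95% interval from -0.31 to 0.14. The interval excludes a change of the size seen for each of the other five.

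**Figure D1:**
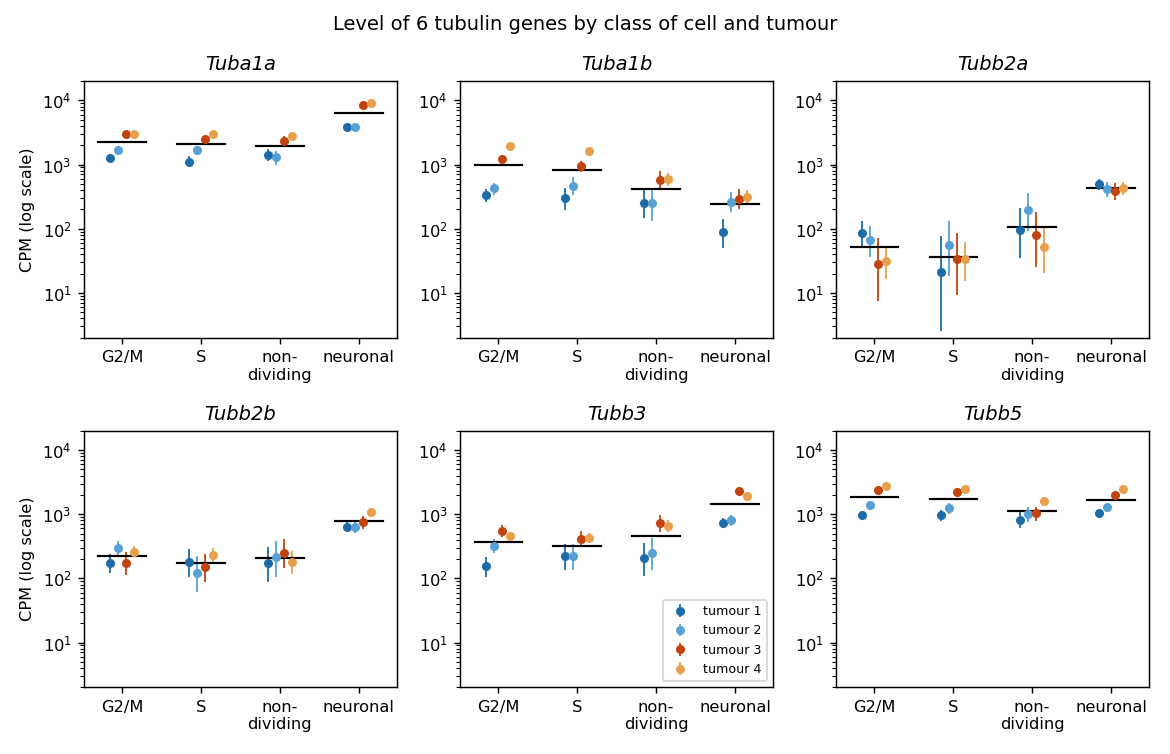
Level of each of the 6 tubulin genes in CPM (log axis) in G2/M, S-phase, non-dividing and neuronal cells. Points are the 4 tumours with exact 95% Poisson intervals, which cover counting error only, and black lines are means. Tuba1a, Tubb2a, Tubb2b and Tubb3 are highest in neuronal cells, Tuba1b has its highest mean in G2/M cells although its S-phase value is the higher in tumour 2, and Tubb5 has a mean of 1857 CPM in G2/M and 1688 CPM in neuronal cells.

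Isotype shares, the UMIs of an isotype as a percentage of the UMIs of the 6 tubulins in the same tumour and class, do not depend on how the sums are scaled. In G2/M cells Tuba1a made up 40.0% ± 3.11, Tubb5 32.6% ± 0.32, Tuba1b 15.1% ± 5.91, Tubb3 6.48% ± 1.30, Tubb2b 4.59% ± 2.19 and Tubb2a 1.29% ± 1.17 (SD, n = 4). In neuronal cells Tuba1a made up 57.1% ± 3.17, Tubb5 15.7% ± 1.59, Tubb3 12.7% ± 2.63, Tubb2b 7.65% ± 1.82, Tubb2a 4.61% ± 2.21 and Tuba1b 2.26% ± 0.99 (SD, n = 4). Tuba1b was thus the third in G2/M cells and the last in neuronal cells. Neighbours in these orders were not all apart: in neuronal cells Tubb5 exceeded Tubb3 in 3 of 4 tumours, and in G2/M cells Tubb3 exceeded Tubb2b in 3 of 4. The other neighbours kept their order in 4 of 4 tumours in both classes.

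The Tubb5 share of G2/M cells was 32.7, 32.8, 32.1 and 32.6% in tumours 1 to 4, although the level ran from 979 to 2722 CPM in the same cells. In neuronal cells it was 15.1, 17.7, 14.0 and 16.1%. The classes were far apart, and the difference averaged -16.8 percentage points ± 1.33 (SD, n = 4), negative in 4 of 4 tumours. The Tuba1a share differed by 17.1 ± 5.38 points, that of Tubb3 by 6.17 ± 2.32, of Tubb2a by 3.32 ± 1.08, of Tubb2b by 3.07 ± 0.88 and of Tuba1b by -12.9 ± 6.26 points, each with 1 sign in 4 of 4 tumours (SD, n = 4 each). For each of the 6 differences the two-sided exact sign-flip test gave p = 0.13, the smallest that 4 tumours allow, and 0.2 after Benjamini-Hochberg adjustment over the 24 share differences computed. Among Tubb2a, Tubb2b, Tubb3 and Tubb5, with other β-tubulins not counted, Tubb5 held 72.8% ± 5.19 of the UMIs in G2/M and 38.7% ± 3.17 in neuronal cells. Tubb3 held 14.5% ± 2.85 and 31.5% ± 8.17 (SD, n = 4 each).

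**Figure D2:**
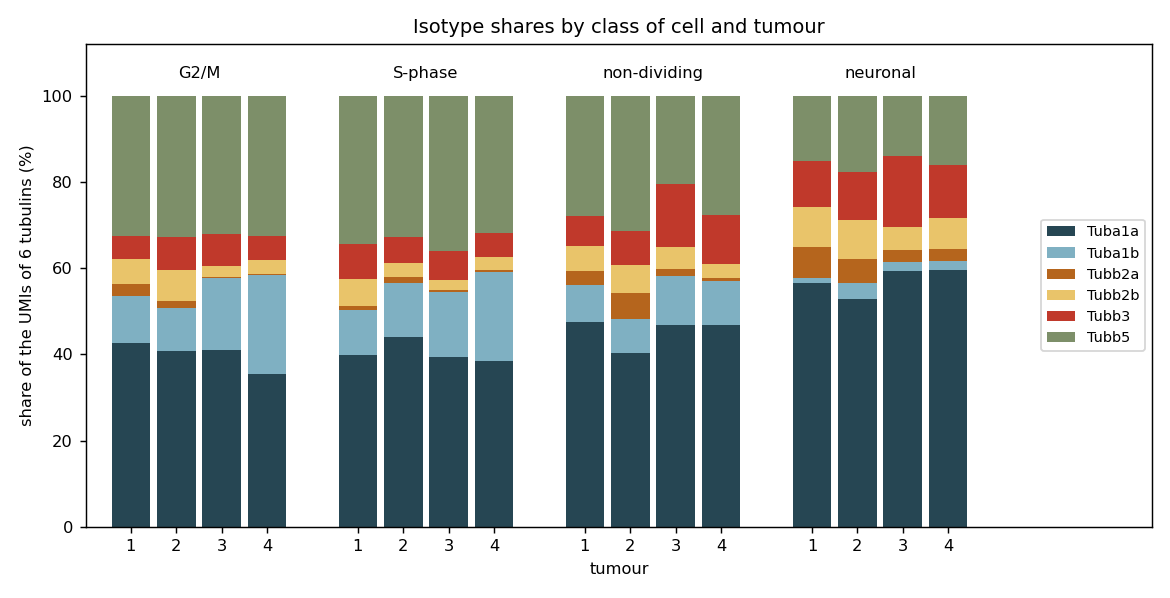
Isotype shares as percentages of the UMIs of the 6 tubulins (vertical axis) for tumours 1 to 4 in each of 4 classes of cells. Tubb5 takes 32.1 to 32.8% of every G2/M bar and 14.0 to 17.7% of every neuronal bar, and Tuba1a takes 52.9 to 59.7% of the neuronal bars.

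Neuronal cells were next compared with non-dividing cells, the other class with few cycle markers. Tuba1a, Tubb2b, Tubb2a, Tubb3 and Tubb5 rose and Tuba1b fell. All 6 were called, where 22.2% of tested genes were called, 11.0% higher and 11.2% lower. The median log2 fold change was 1.68 over the 6 and -0.03 over all tested genes. With classes by 2, 3 and 4 distinct markers the background itself moved: 56, 189 and 341 genes were called higher and 4, 7 and 11 lower, with medians of 0.27, 0.56 and 0.80 over all tested genes, so folds from those settings are read against these medians. Tubb2a had 6, 10, 5 and 7 UMIs in non-dividing cells, which is 95.0, 193, 79.1 and 51.3 CPM, all below the neuronal values, and the log2 fold change was 2.25 (SE 0.28, edgeR adjusted p = 1.08e-09). All but the value of tumour 2 lay below the 132 CPM of the 50 non-neural cells, so this fold too is taken over a low level. The call was lost with classes by 3 distinct markers (1.57, edgeR adjusted p = 0.107), and with 2 distinct markers Tubb2a was not tested. Tubb2b stood at 174, 212, 253 and 183 CPM in non-dividing cells and rose by 2.05 (SE 0.21, adjusted p = 6.58e-13). Tuba1a rose by 1.71 (SE 0.11, edgeR adjusted p = 3.90e-21) and Tubb3 by 1.65 (SE 0.16, edgeR adjusted p = 2.12e-13). By CPM, all 4 genes were higher in neuronal cells in 4 of 4 tumours. Non-dividing cells held 206, 251, 728 and 666 CPM of Tubb3, all below the lowest neuronal value of 733 CPM, though by a narrow margin in tumour 3.

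Tubb5 rose by 0.62 on the log2 scale from non-dividing to neuronal cells (SE 0.13, edgeR adjusted p = 0.000195), higher in 4 of 4 tumours, with overlapping classes. The rise was 0.38 in tumours 1 and 2 alone (adjusted p = 0.217) and 0.77 in tumours 3 and 4 alone (adjusted p = 1.5e-10), and without the tumour as a block it was 0.62 (adjusted p = 0.462). Tuba1b fell by 0.72 on the log2 scale (SE 0.23, edgeR adjusted p = 0.0156), lower in 3 of 4 tumours and overlapping between the classes. The Tuba1b call was lost in 11 of 20 alternatives, among them the omission of tumour 1, 3 or 4, with adjusted p-values between 0.000853 and 0.577, and the fold stayed negative in all 20. In shares, Tuba1a differed by 11.7 points ± 1.88, Tubb5 by -11.1 ± 3.13 and Tuba1b by -7.22 ± 2.18 (SD, n = 4 each), each with 1 sign in 4 of 4 tumours (two-sided exact sign-flip p = 0.13, adjusted 0.2).

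Between G2/M and non-dividing cells, the 2 genes called were Tuba1b and Tubb5, both higher in G2/M cells. In this comparison 7.98% of tested genes were called, 5.45% higher and 2.53% lower. Tuba1b was higher by 1.21 on the log2 scale (SE 0.19, edgeR adjusted p = 5.47e-07) and Tubb5 by 0.71 (SE 0.13, adjusted p = 2.57e-05). Both were higher in G2/M cells of all 4 tumours, and both overlapped between the classes. Tumours 3 and 4 alone gave 1.56 for Tuba1b and 0.93 for Tubb5 (edgeR adjusted p = 2.08e-24 and 4.35e-17). Tumours 1 and 2 alone gave 0.57 and 0.37 (adjusted p = 0.438 and 0.352), neither of them called. Without the tumour as a block neither was called (1.2 and 0.73, adjusted p = 0.584 and 0.712). Tubb2a had a log2 fold change of -0.85 (SE 0.38, edgeR adjusted p = 0.179), lower in G2/M cells in 4 of 4 tumours, with an approximate 95% interval from -1.60 to -0.10. Tuba1a (0.21), Tubb2b (0.25) and Tubb3 (-0.30) were not called either, with edgeR adjusted p-values from 0.33 to 0.633. The share of Tubb5 in non-dividing cells was 27.8, 31.3, 20.6 and 27.7%, below the G2/M share of the same tumour in 4 of 4 tumours, but the mean difference turned to -0.12 points with classes by 3 distinct markers, the rule first chosen. In this comparison too the median over all tested genes moved with the class rule, from -0.05 to 0.31, 0.57 and 0.83 with 2, 3 and 4 distinct markers.

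S-phase and G2/M cells were not told apart by any of the 6 genes. Of the 6, edgeR called 0, and 0 had an unadjusted p under 0.05. DESeq2 also called 0, while 4.97% of tested genes were called by edgeR, 1.55% higher and 3.42% lower. Log2 fold changes of S-phase over G2/M cells ran from -0.48 for Tubb2a (SE 0.40, with 2, 5, 4 and 9 UMIs in the S-phase cells of tumours 1 to 4) to -0.11 for Tubb5 (SE 0.12). Their approximate 95% intervals were -0.36 to 0.07 for Tuba1a, -0.49 to 0.11 for Tuba1b, -1.27 to 0.31 for Tubb2a, -0.80 to 0.02 for Tubb2b, -0.56 to 0.11 for Tubb3 and -0.34 to 0.12 for Tubb5. All 6 means were lower in S-phase cells, and the sum of the 6 was lower in 4 of 4 tumours, at a ratio of 0.91 ± 0.04 (SD, n = 4; two-sided exact sign-flip p = 0.13).

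**Figure D3:**
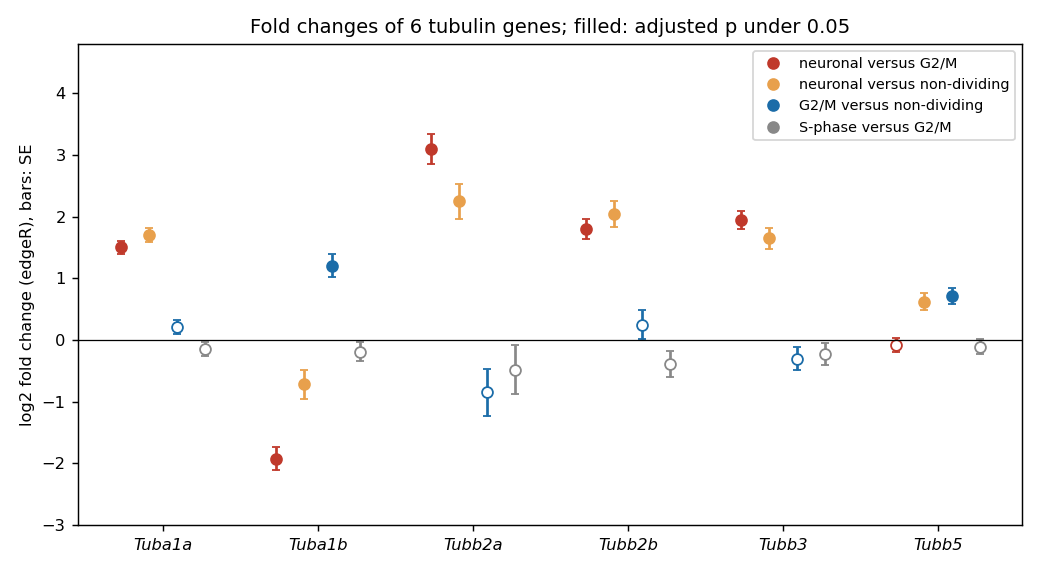
Log2 fold change (edgeR) of each tubulin gene in 4 comparisons between classes of cells, over 4 tumours. Bars are standard errors, and filled points have an adjusted p under 0.05. Tubb2a reaches 3.10 and Tuba1b -1.93 in neuronal over G2/M cells, where Tubb5 lies at -0.09, and no point of S-phase over G2/M cells is filled.

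Among the remaining tubulins, Tubb4b, a broadly expressed β-tubulin, had its highest level in G2/M cells. Of 14 further tubulin genes, 11 were in the tables and 2, Tubb4b and Tubg1, passed the filter on low counts. Tubb4b had 221 UMIs in G2/M, 46 in S-phase, 21 in non-dividing and 25 in neuronal cells over the 4 tumours. That is 193 ± 111, 66.5 ± 36.6, 59.3 ± 21.6 and 41.7 ± 15.8 CPM (SD, n = 4 each). Tubb4b passed the filter only with its G2/M sums, so its tests after the filter are not used as support. Fitted with no filter on low counts, its log2 fold change was -2.31 in neuronal relative to G2/M cells (SE 0.31, edgeR adjusted p = 9.77e-12), -1.62 in S-phase relative to G2/M cells (SE 0.28, adjusted p = 1.42e-06) and 1.93 in G2/M relative to non-dividing cells (SE 0.34, adjusted p = 1.43e-06). The calls were lost in 1, 2 and 5 of the 17 alternatives that tested it, in the same order. All of these but the fit with no filter came after the filter, and they are given for the losses only. All 3 were lost in tumours 1 and 2 alone, those against S-phase and non-dividing cells without the tumour as a block, and that against non-dividing cells also without tumour 4 and with classes by 3 and 4 distinct markers, where its fold shrank to 0.41 and 0.85 (edgeR adjusted p = 0.841 and 0.488). In neuronal relative to G2/M cells Tubb4b had, after the filter, -1.24 in tumours 1 and 2 and -2.92 in tumours 3 and 4, given as a description. Tubg1, the γ-tubulin that nucleates microtubules, had a log2 fold change of -0.45 in neuronal over G2/M cells (SE 0.43, edgeR adjusted p = 0.432) and was not called in the other three comparisons either. The α-tubulin Tuba1c was not tested for its low counts, with 103 UMIs in G2/M, 8 in S-phase, 4 in non-dividing and 19 in neuronal cells, and the brain β-tubulin Tubb4a had 38, 30, 14 and 76.

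Genes that act on tubulin or microtubules were described from 4 further lists. Of the 25 microtubule-associated genes listed in the tables, 21 were tested, and between G2/M and neuronal cells 13 rose and 3 fell. Mapt, Map6 and Katna1 would not have passed the filter on low counts without their neuronal sums, nor Kif2c without its G2/M sums, and without these 4 genes 11 of 17 rose and 2 fell, where 18.8% of all tested genes were called higher and 19.9% lower, with a median log2 fold change of 0.94 against -0.02 over all tested genes. The stathmin Stmn4, of a family that binds free tubulin, rose by 2.46 (SE 0.18, edgeR adjusted p = 2.26e-20), higher in 4 of 4 tumours. Mapt, which encodes the axonal protein tau, had 272 UMIs in neuronal and 39 in G2/M cells, and with no filter on low counts its log2 fold change was 3.33 (SE 0.25, edgeR adjusted p = 4.55e-37). After the filter, which Mapt passed only with its neuronal sums, it had 2.89 in tumours 1 and 2 and 4.05 in tumours 3 and 4, given as a description. In the fit with no filter Map6, a microtubule stabiliser, had 2.52 (SE 0.28, edgeR adjusted p = 4.02e-17). Kif2c, a mitotic kinesin that depolymerises microtubules, had 144 UMIs in G2/M and 4 in neuronal cells, with -4.35 in that fit (SE 0.49, edgeR adjusted p = 9.42e-17). Over all tested genes of the list, the counts were 11 higher in each pair of libraries alone, with 2 and 3 lower, and 8 higher and 2 lower without the tumour as a block. These counts include Mapt, 1 of those 4 genes, so they are descriptions and not support. Relative to non-dividing cells 13 of 21 rose and 0 fell in neuronal cells, or 11 and 0 of 17 without those 4 genes, where 11.0% of all tested genes were called higher and 11.2% lower. Stmn4 (2.86), Stmn2 (2.31) and Map1b (1.82) rose in 4 of 4 tumours, and Mapt had 272 UMIs in neuronal and 12 in non-dividing cells. The count of 13 was 8 without the block, 9 in tumours 1 and 2 alone, and 13 higher with 1 lower of 22 tested in tumours 3 and 4 alone. These counts too include Mapt and are descriptions.

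Of the 17 microtubule-associated genes left without those 4, Ckap5 and Stmn1 were called higher in G2/M than in non-dividing cells and Dcx lower, or 2 and 1, where 5.45% of all tested genes were called higher and 2.53% lower. Kif2c had 144 UMIs in G2/M and 2 in non-dividing cells. Ckap5, a microtubule polymerase of the spindle, was higher by 2.04 on the log2 scale (SE 0.20, edgeR adjusted p = 1.39e-13, 755 UMIs against 58), while its change in S-phase over G2/M cells was -1.97 (SE 0.17, adjusted p = 8.27e-16). Dcx, a microtubule protein of migrating neurons, had a log2 fold change of -0.72 in G2/M cells (SE 0.21, edgeR adjusted p = 0.0143), lower in 3 of 4 tumours. The Dcx call was lost in 11 of 20 alternatives, among them the omission of the block (adjusted p = 0.274) or of tumour 1, 3 or 4 (adjusted p = 0.172, 0.224 and 0.0618), and the sign turned in the 3 with classes by distinct markers, in which the median of all genes also moved up. Stmn1 had 0.61 (SE 0.16, edgeR adjusted p = 0.00542) but was higher in only 2 of 4 tumours by CPM. Over all tested genes of the list, Kif2c included, 3 were called higher. That count was 2 without the block, without tumour 3 or 4, in tumours 1 and 2 alone and with DESeq2.

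Of the 17 genes of the γ-tubulin ring complex and augmin, which start new microtubules, 7 were tested, and 4 were lower in neuronal than in G2/M cells and 0 higher, where 19.9% of all tested genes were lower. The genes tested are those with enough UMIs, and Tubgcp3 and Haus6 passed the filter with 0 neuronal sums above its level, so the 4 of 7 is a count and not support for a change of the complex. They were the centrosomal activator Cdk5rap2 (log2 fold change -1.97, SE 0.25, edgeR adjusted p = 5.35e-10), the augmin subunits Haus6 (-1.38, adjusted p = 0.00202) and Haus3 (-0.79, adjusted p = 0.047) and the ring-complex subunit Tubgcp3 (-1.20, adjusted p = 0.00699), each lower in 4 of 4 tumours. The count lower was 2 of 6 in tumours 1 and 2 alone, 5 of 10 in tumours 3 and 4 alone and 1 of 7 without the block. Relative to non-dividing cells 0 of the 7 were called in neuronal cells, where 11.0% of all tested genes were higher and 11.2% lower. In G2/M relative to non-dividing cells Cdk5rap2 (1.46, edgeR adjusted p = 8.37e-05) and Haus3 (1.30, adjusted p = 0.0415) were higher, where 5.45% of all tested genes were. Cdk5rap2 was also lower in S-phase than in G2/M cells (-0.89, edgeR adjusted p = 0.00455), where 3.42% were. Of 15 tested genes of tubulin folding, 2 were lower in neuronal cells, the chaperonin subunits Cct3 (-0.58, edgeR adjusted p = 0.0245) and Cct5 (-0.58, adjusted p = 0.047), and 0 higher. That count is not above the 19.9% of all tested genes. Both calls were lost with DESeq2, without the block, without tumour 1 or 4 and in tumours 1 and 2 alone, where the count was 0. Of 14 genes in the tables that act on tubulin mRNA or modify tubulin only 2 were tested, and both rose, where 18.8% of all tested genes were higher: Atat1, the α-tubulin acetyltransferase, by 1.53 (SE 0.30, edgeR adjusted p = 1.74e-05, 4 of 4 tumours) and Agtpbp1, which removes glutamates from tubulin tails, by 0.60 (SE 0.23, adjusted p = 0.031, 3 of 4 tumours). DESeq2 called 1 of the 2, and tumours 1 and 2 alone gave 0.

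**Figure D4:**
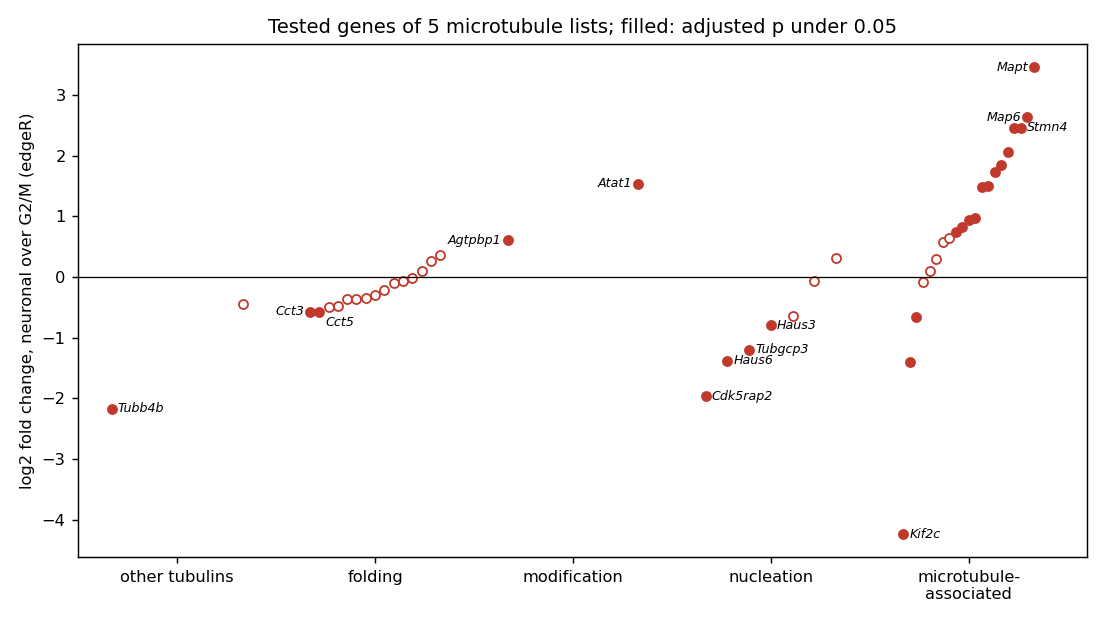
Log2 fold change (edgeR, neuronal over G2/M cells) of every tested gene in 5 lists, ordered within each list. Filled points have an adjusted p under 0.05. In the microtubule-associated list 13 of 21 points are filled above 0, up to Mapt at 3.45 (1 of the 4 genes that would not have passed the low-count filter without their neuronal or G2/M sums), and in the nucleation list 4 of 7 are filled below 0.

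The genes whose levels ran most like each member were sought among 3833 genes with a mean of at least 50 CPM, by Pearson's r of log2 CPM over the 16 sums of 4 classes and 4 tumours. The 6 tubulins and the class markers were left out of the ranking, and Tuba1a and Tubb3 ran as closely with each other (r = 0.95) as with their best matches. The 16 points share libraries and classes, so r is given as a description. Tuba1a ran most like Basp1 (r = 0.95), Gng3 (0.94) and Msi2 (0.94), and Tubb3 most like Msi2 (0.96), Basp1 (0.96) and Dbn1 (0.94). Basp1, a membrane protein of growing axons, stood at 527, 495, 577 and 1420 CPM in G2/M, S-phase, non-dividing and neuronal cells. Tubb2a was nearest to Map1b (0.94), a microtubule-associated protein of growing axons, Btbd17 (0.93) and Kidins220 (0.93), and Tubb2b to Zic1 (0.94), a transcription factor of the granule lineage, Usp22 (0.94) and Celf2 (0.93). Tuba1b was nearest to the histone variant genes H2afv (0.95) and H2afz (0.93) and to Serbp1 (0.94), and H2afz stood at 534 CPM in G2/M and 123 CPM in neuronal cells. Tubb5 had the lowest best match, Capza2 (0.93), which caps actin filaments, ahead of Ict1 (0.87) and Mrpl20 (0.86).

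Neuronal cells were also divided by 8 later neuronal markers, among them Snap25 and Syt1, at 4 marker UMIs per 1000. The Tubb3 share was 9.81, 8.48, 16.1 and 9.81% in cells with more late markers and 12.4, 13.1, 16.7 and 13.4% in those with fewer, in tumours 1 to 4. It was lower with more late markers in 4 of 4 tumours, by a mean difference of -2.87 points ± 1.73 (SD, n = 4), and the difference was small in tumour 3. Tubb2a and Tubb2b shares were higher with more late markers in 4 of 4 tumours, by 1.17 ± 1.11 and 1.09 ± 0.58 points (SD, n = 4 each). Tubb5 differed by -2.10 ± 2.10 points and was lower in 3 of 4 tumours, while Tuba1a and Tuba1b were higher in 2 and lower in 2. Each part held 61 to 141 cells and 19 to 67 UMIs of Tubb2a per tumour, and the division is given as a description.

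**Figure D5:**
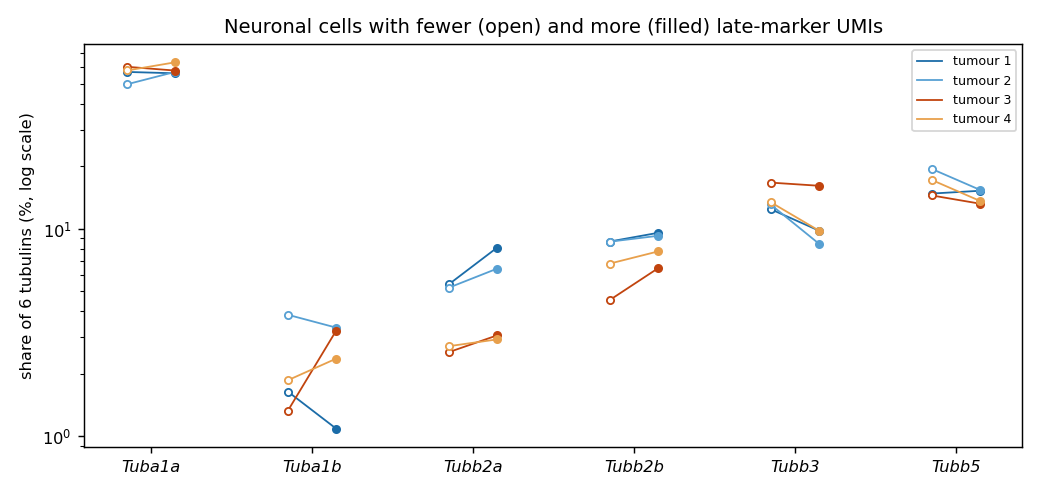
Isotype share (percent, log axis) of each tubulin in neuronal cells with fewer (open) and more (filled) UMIs of late neuronal markers, joined within each of 4 tumours. The Tubb3 lines fall and the Tubb2a and Tubb2b lines rise in all 4 tumours.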

How the data were processed

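Single-cell suspensions were made with papain and processed by Drop-seq, per the labels, and the submitters' processing notes name STAR and mm10. The deposited tables hold whole-number UMI counts per gene and barcode, with no normalization. Read counting, treatment of reads with several matches and barcode filters are not given in the sources used here. Depth was 766276, 723661, 528971 and 1253618 UMIs in the kept barcodes of tumours 1 to 4, and class sums held 51896 to 416219 UMIs. A further 6 tables with 11203 cell columns match no labelled sample and were not used.

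Cells were classed by marker UMIs per 1000 UMIs. G2/M cells had at least 8 of the G2/M list, and S-phase cells at least 5 of the S list and under 8 of the G2/M list. Neuronal cells had at least 12 of the neuron list and under 4 of each cycle list. Non-dividing cells had under 4 of each cycle list, under 8 of the neuron list and at least 2 of the progenitor list. Cycling cells with at least 12 of the neuron list were left out as mixed, and cells with UMIs of at least 3 genes of a glial, immune or vessel list were set apart. The rule first chosen, 3 distinct marker genes, left 5 to 10 non-dividing cells per tumour and was replaced once cell numbers were seen and before tubulin values were computed. It was kept as an alternative. Scrublet (scanpy 1.11.5) called 12 doublets, which were kept and left out in an alternative.

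Counts were summed per tumour and class into 16 sums and tested with edgeR 4.0.16 in R 4.3.3 (TMM, filterByExpr, quasi-likelihood F test, Benjamini-Hochberg adjustment over all tested genes, threshold 0.05). The tumour was a block because the 4 sums of a tumour come from 1 animal. Deviations of same-tumour sums from class means correlated over 4037 genes at r between 0.392 and 0.789. SE is the log2 fold change over the square root of F. Genes of the class lists were left out of counts of calls. The lists were fixed with the named genes, which are the 6 members, in each list and comparison the 4 called genes with the largest fold, and the 3 genes most like each member. Calls of named genes that are not discussed are Map1b, at the threshold, Vbp1 and Kif2c in S-phase relative to G2/M cells, and Cct7 and Agtpbp1 in neuronal relative to non-dividing cells. Members and lists were chosen with earlier results of these data known. On simulated counts for neuronal against G2/M sums (3773 genes) the test recovered 63.8% of 2-fold and 100% of 4-fold rises. It recovered 33.3% of 2-fold and 94.7% of 4-fold falls, and 3.76% of calls were false. Recovery was counted over the changed genes that passed the filter. The simulated counts had the same dispersion for all genes and no difference between tumours, unlike these libraries, so the rates need not hold for them. Exact intervals of counts and shares cover counting error only, while the approximate intervals of log2 fold changes come from edgeR's SE.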

Additional observations from a re-analysis of the deposited data

Results flagged for a closer look

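Of 48 groups of 4 tumours tested for a value set apart from the rest (levels and isotype shares of the 6 genes in 4 classes), 1 was marked. The Tuba1a share in non-dividing cells was 40.4% in tumour 2 (exact 95% interval 32.8 to 48.2%, 67 UMIs of Tuba1a), with the next tumour at 46.8% and the highest at 47.6%. Its gap to the next, divided by the range, exceeded Dixon's 95% critical value for 4 samples. Chance marks about 1 in 20 such groups.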

How the results depend on the processing

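With the tumour as a block removed (no replicate block), 485, 184, 86 and 31 genes were called for neuronal versus G2/M, neuronal versus non-dividing, G2/M versus non-dividing and S-phase versus G2/M cells, against 1525, 878, 315 and 196 in the reported fit. In the same order, classes by 2 distinct markers gave 224, 60, 18 and 9, classes by 3 distinct markers 519, 196, 93 and 53, thinning to 500 UMIs 671, 358, 113 and 60, cells with at least 1000 UMIs 684, 393, 150 and 107, and tumours 1 and 2 alone 772, 324, 126 and 75. Classes by 4 distinct markers gave 861, 352 and, for S-phase versus G2/M, 80 calls, and DESeq2 gave 114 for the last. Leaving out 1 tumour at a time gave 989 to 1559, 486 to 929, 162 to 308 and 100 to 186 calls, each lowest without tumour 4. Some of these settings test fewer genes or fewer cells; the cause was not tested otherwise. Over 20 alternatives (19 for Tubb2a), Tuba1a, Tuba1b, Tubb2a, Tubb2b and Tubb3 were called in the same direction in all that tested them for neuronal versus G2/M cells, and Tubb5 in 0. Against non-dividing cells the Tubb5 call was lost in 3 and those of Tubb2a and Tubb2b in 1 each; for G2/M versus non-dividing cells the Tuba1b call was lost in 4 and the Tubb5 call in 3, and Tuba1a was called in 3. The Tubb5 share difference of neuronal minus G2/M cells was -18.7 points with 2 distinct markers, -18.4 with 4 and -18.2 with at most 10% mitochondrial UMIs per cell. Share differences that changed sign were Tubb2b, neuronal minus non-dividing (-0.087 points, thinned), Tubb3, G2/M minus non-dividing (1.19, 1.85 and 1.45 points with 2, 4 and 3 distinct markers), and Tubb5, G2/M minus non-dividing (-0.12 points with 3 distinct markers). The reported class rule, the higher thresholds and the omission of mitochondrial genes were chosen after seeing the data, and 3 distinct markers is the rule first chosen. Non-dividing cells, with 63 to 138 per tumour, limit these comparisons most by number, and Tubb2a counts are low outside neuronal cells.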

Other observations

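Tubulin genes with too few UMIs for the filter were also fitted with no filter on low counts. Tuba1c, an α-tubulin close in sequence to Tuba1a and Tuba1b, then had a log2 fold change of -1.71 in neuronal relative to G2/M cells (SE 0.38, edgeR adjusted p = 0.000139) and of -2.99 in S-phase relative to G2/M cells (SE 0.46, adjusted p = 2.20e-08), on 103 UMIs in G2/M and 8 in S-phase cells. Tubb4a, a β-tubulin of the brain, was higher in neuronal cells by 1.63 over G2/M (SE 0.34, edgeR adjusted p = 2.65e-05) and by 1.75 over non-dividing cells (SE 0.43, adjusted p = 0.00144). Tubb6 had 8 UMIs in neuronal cells and 1 or 2 in each other class, and Tuba8, Tuba3b, Tubal3 and Tubd1 had 3 to 10 UMIs each over the 4 classes.

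Among the 6 genes, log2 CPM over the 16 sums gave the highest Pearson's r between Tuba1a and Tubb3 (0.95) and between Tubb2a and Tubb2b (0.85). The lowest was between Tuba1b and Tubb2a (-0.76). The sums share libraries and classes, so these values are descriptions.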
